A study of Homo sapiens with 4 samples.

Results

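Decitabine (5-aza-2'-deoxycytidine) is a deoxycytidine analogue, and 10 genes that govern its entry into cells and its metabolism were followed in colorectal cancer cells exposed to it. The genes were chosen by name, as the spots whose platform symbol was SLC29A1, SLC29A2, SLC28A1, DCK, CDA, DCTD, RRM1, RRM2, NT5E or NT5C3A. Each had 1 probe, so 10 probes stood for them among 29640 probes that were not controls.

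Nucleoside analogues cross the membrane through equilibrative transporters (SLC29 family), which carry nucleosides down their gradient, and concentrative transporters (SLC28 family), which couple uptake to sodium. Decitabine is then phosphorylated by deoxycytidine kinase (DCK), and after further kinase steps its triphosphate is built into DNA, where it traps DNA methyltransferases. Cytidine deaminase (CDA) and dCMP deaminase (DCTD) remove the amino group from the nucleoside and from its monophosphate, and 5'-nucleotidases take the phosphate off again. Ribonucleotide reductase (RRM1 and RRM2) makes the deoxynucleotides with which the drug competes.

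RNA was taken from treated cells of DLD-1 and HT-29, 2 human colorectal cancer lines kept in RPMI1640 with serum, after 24 h of growth and then 96 h with 1 µM of the drug, and from untreated cells of the same line. Treated and untreated RNA of a line shared 2 oligonucleotide arrays, with treated RNA labelled with Cy5 on array 1 and the dyes exchanged on array 2, which gave 4 arrays. Nothing in the labels says that the arrays of a line came from separate cultures, so they counted as 1 replicate. P-values rest on 1 variance shared by all probes and speak only for these samples. The number of arrays limits the precision. The sources used here do not settle which file channel holds treated RNA on the dye-exchanged arrays. Channel 2 was read as treated on all 4 arrays, and values in the labels' order (channel 1 treated on array 2 of each line) are given beside the means of the tested genes.

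Signal was called above background when a spot was brighter than its surroundings by over 2 SD of those surroundings, which held for both channels at 19525 to 22946 probes of an array. Across 18868 probes with at least 1 channel above background on every array, log2 ratios (treated over untreated) correlated at r = −0.45 between both arrays of DLD-1, at r = 0.0010 between both of HT-29, and at r = 0.51 between array 1 of DLD-1 and array 1 of HT-29. Read in the labels' order, the same correlations were 0.45, −0.0010 and 0.51, so the sign for DLD-1 rests on how the channels are read. Probes are not independent replicates. Position in the 48 printed blocks accounted for 23.2% to 49.7% of the variance of the ratios. Of 12 probes for colon epithelial markers, 9 were above background in all 8 channels. Normalized log2 signals of the 12, as line means, ran from 8.27 (CDX1 in HT-29) to 14.79 (EPCAM in DLD-1). EPCAM was at 14.20 in HT-29. Of 10 probes for blood, stromal and endothelial markers, 5 were above background in all 8 channels, against 47.9% of all probes, and their line means lay between 9.40 and 12.15, where the median of all probes was 10.49. None of these marker probes was at 0.

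Drug exposure was first asked for its effect on the 10 genes. No gene of the set was called as changed: 7 of the 10 had at least 1 channel above background on every array, and 0 of these 7 passed limma's test of the 2 line means against 0 at a Benjamini-Hochberg adjusted p under 0.05. Of the 18868 probes 0.175% passed, 0.143% higher and 0.0318% lower in treated cells. An unadjusted limma p under 0.05 was found for 2 of the 7, where 4.82% of probes had one. In DLD-1 0 of 9 measured genes were at least 2-fold changed in the same direction on both arrays, where 0.123% of probes were, and in HT-29 0 of 8, where 0.128% were. The counts of genes called by adjusted p and of genes 2-fold changed in either line were also 0 in the labels' order. The median of the 7 means was a log2 ratio of 0.0073, against 0.0057 over all probes tested. The plot of ratios by array shows the single values.

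**Figure D1:**
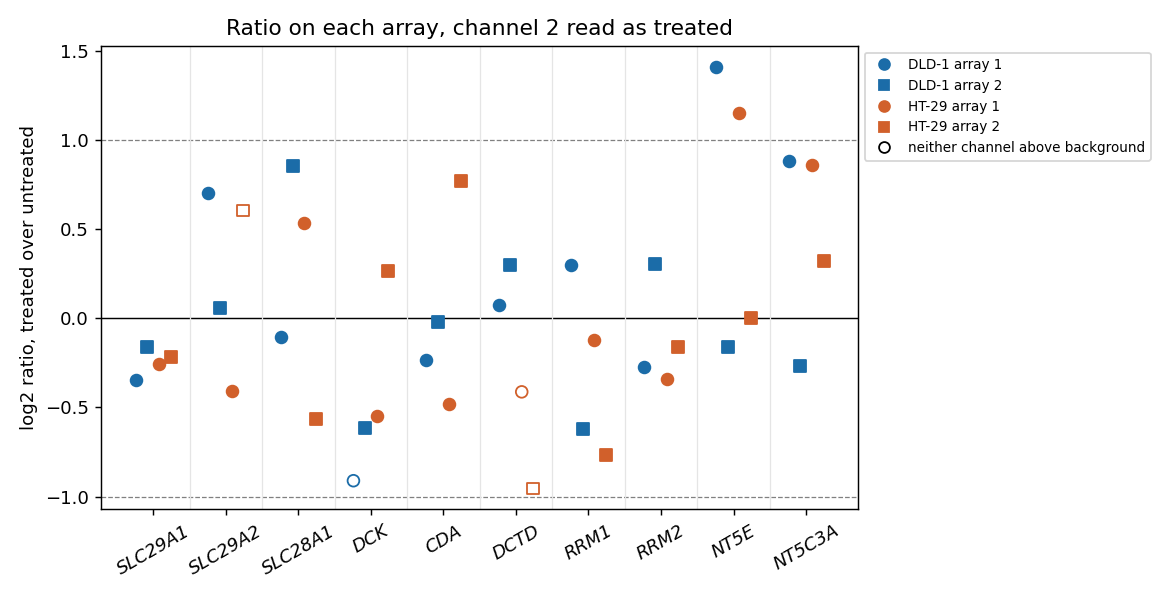
Log2 ratio of treated over untreated signal (vertical axis) for the 10 genes (horizontal axis) on the 4 arrays, with DLD-1 in blue, HT-29 in orange, circles for array 1, squares for array 2 and open symbols where neither channel was above background; dashed lines mark 2-fold. With channel 2 read as treated, SLC29A1 lies below 0 on all 4 arrays. NT5E exceeds 2-fold on array 1 of each line (1.41 and 1.15) and is near 0 on the dye-exchanged arrays.

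Among the transporters, SLC29A1, the equilibrative nucleoside transporter ENT1, had normalized log2 signals of 11.78 and 11.95 in treated DLD-1 cells, against 12.13 and 12.11 in untreated DLD-1 cells. In HT-29 it had 10.15 and 10.44 in treated cells, against 10.40, not above background, and 10.66 in untreated cells. Treated signal was the lower on each array, with log2 ratios of −0.34 and −0.16 in DLD-1 and −0.25 and −0.22 in HT-29. It was the only gene of the 7 with 1 sign on all 4 arrays. Of all probes 7.84% had that, 4.53% higher and 3.31% lower in treated cells. The mean was −0.24 (limma SE 0.221, 95% interval −0.68 to 0.19, adjusted p = 0.963), so no change was called, and in the labels' order the mean was −0.056.

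SLC28A1, the sodium-coupled transporter CNT1, had ratios of −0.10 and 0.85 in DLD-1 and 0.53 and −0.57 in HT-29, so each line held both signs. Its mean was 0.18 (95% interval −0.26 to 0.61, limma adjusted p = 0.963), with 0.036 in the labels' order. The 2 HT-29 arrays differed widely in its signal, with 8.08 and 10.09 in treated cells and 7.55, not above background, and 10.66 in untreated cells. SLC29A2, the transporter ENT2, had ratios of 0.70 and 0.058 in DLD-1 and −0.41 and 0.60 in HT-29. It was not tested, because neither channel was above background on HT-29 array 2.

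DCK, the kinase that catalyses the first phosphorylation of decitabine, was dim. In DLD-1 its log2 signals were 9.22 and 8.31 in treated cells, neither above background, against 10.13, not above background, and 8.92 in untreated cells. Both DLD-1 ratios were negative, at −0.91 and −0.61, but no fold is given because the treated signal was at background. In HT-29 the signals were 10.17 and 8.36, the second not above background, in treated cells, against 10.72 and 8.10 in untreated cells, with ratios of −0.55 and 0.27. DCK did not enter the limma test because DLD-1 array 1 showed it in neither channel.

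CDA, which inactivates decitabine before it is phosphorylated, was above background in all 8 channels. Its log2 signals were 12.22 and 12.13 in treated DLD-1 cells, against 12.46 and 12.15 in untreated DLD-1 cells. In HT-29 they were 11.54 and 10.42 in treated cells, against 12.03 and 9.65 in untreated cells. The ratios were −0.24 and −0.020 in DLD-1 and −0.48 and 0.77 in HT-29, and the mean of 0.0073 (95% interval −0.43 to 0.44, limma adjusted p = 0.999) was not called, with −0.37 in the labels' order. The HT-29 ratios were of opposite sign and cancelled in that mean.

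DCTD, the deaminase of dCMP, had ratios of 0.076 and 0.30 in DLD-1 and −0.41 and −0.95 in HT-29. In DLD-1 it was above background in all 4 channels, with signals of 10.46 and 9.79 in treated cells, against 10.38 and 9.49 in untreated cells. In HT-29 it was above background in 0 of 4 channels, so its HT-29 ratios compare background with background, and it did not enter the test.

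The subunits of ribonucleotide reductase were bright in DLD-1 and gave no call. RRM1, the large subunit, had log2 signals of 12.19 and 12.34 in treated DLD-1 cells, against 11.89 and 12.97 in untreated ones. In HT-29 it had 11.49 and 8.85 in treated cells, against 11.61 and 9.61 in untreated ones, and the 8.85 was not above background. Its ratios were 0.30 and −0.62 in DLD-1 and −0.12 and −0.77 in HT-29. The mean was −0.30 (95% interval −0.74 to 0.13, limma adjusted p = 0.963), with 0.39 in the labels' order, so the sign rests on how the channels are read.

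RRM2, the small subunit that cells make mainly in S phase, had ratios of −0.27 and 0.31 in DLD-1 and −0.34 and −0.16 in HT-29. Its mean was −0.12 (95% interval −0.55 to 0.32, limma adjusted p = 0.971), with −0.19 in the labels' order. It was 0.036 once block medians were set to 0.

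The nucleotidases had the highest means of the 7 tested genes. NT5E is CD73, an enzyme of the cell surface that takes phosphate off extracellular nucleoside monophosphates. Its log2 signals were 11.00 and 10.69 in treated DLD-1 cells, against 9.59 and 10.85 in untreated DLD-1 cells. In HT-29 they were 11.08 and 11.08 in treated cells, against 9.93 and 11.08 in untreated cells. The treated signal was thus more than 2-fold higher on array 1 of each line, with ratios of 1.41 and 1.15, and was not higher by more than 0.0018 on the dye-exchanged arrays, whose ratios were −0.16 and 0.0018.

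The NT5E mean was 0.60, a 1.52-fold difference (95% interval 0.17 to 1.03, limma p = 0.00672, adjusted p = 0.584), where an exact sign-flip test on 2 line means cannot go below a p of 0.5. The interval rests on the variance shared by all probes, not on the spread between the NT5E values of the arrays. The mean lay at percentile 99.1 of all probes tested. In the labels' order it was 0.68 (adjusted p = 0.210). Without DLD-1 array 2 it was 0.99 and passed (limma adjusted p = 0.00238), in a setting in which 874 probes passed. Without DLD-1 array 1 it was 0.21 (limma adjusted p = 1), without HT-29 array 1 it was 0.31, and with block medians set to 0 it was 0.37, none of which passed. Array 1 of both lines carried treated RNA in Cy5, and the ratios of those 2 arrays are the ones that correlated at r = 0.51 over all probes; the part of the dye in the NT5E values was not tested.

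NT5C3A, a cytosolic pyrimidine 5'-nucleotidase, had ratios of 0.88 and −0.27 in DLD-1 and 0.86 and 0.32 in HT-29. Its mean was 0.45 (95% interval 0.014 to 0.88, limma adjusted p = 0.963), with 0.42 in the labels' order. Untreated signal was above background on 2 of 4 arrays, the dye-exchanged ones, so both ratios near 0.9 compare with untreated signal at background. Without DLD-1 array 2 the mean was 0.74 and passed (limma adjusted p = 0.0383), while it was 0.16 without DLD-1 array 1 (adjusted p = 1) and 0.23 with block medians set to 0.

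Other genes of nucleoside transport and pyrimidine nucleotide metabolism gave no call either. Of 54 listed genes 47 were on the array with 51 probes, and 41 probes of 37 genes were tested. None passed limma's test (5 of 41, or 12.2%, had an unadjusted p under 0.05, against 4.82% of all probes), 0 were at least 2-fold changed on both arrays of a line, and their median log2 ratio was −0.00080. On all 4 arrays 2 probes were higher and 1 was lower in treated cells, which is 7.32% of the 41, close to the 7.84% of all probes.

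The highest means of that list were 0.66 for ABCG2, an efflux pump of the cell membrane (limma adjusted p = 0.418), 0.66 for ENTPD1, the ectonucleotidase CD39 (adjusted p = 0.418), and 0.49 for ENTPD3, another member of that family (adjusted p = 0.846). The ABCG2 ratios were 0.65 and 0.17 in DLD-1 and 1.40 and 0.41 in HT-29. The lowest were −0.52 for TYMS, thymidylate synthase (limma adjusted p = 0.782), −0.50 for NT5C, a cytosolic deoxyribonucleotidase (adjusted p = 0.828), and −0.38 for UCK2, a uridine-cytidine kinase (adjusted p = 0.963). In the labels' order the means of ABCG2 and ENTPD1 were 0.37 and 0.63, that of ENTPD3 was −0.45, and those of TYMS, NT5C and UCK2 were 0.32, 0.19 and 0.58.

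The lines were then compared with each other, because uptake and deamination genes can differ between cells that receive the same dose. The signal of a probe was averaged over both channels of an array after normalization, so this comparison does not depend on which channel held treated RNA. Arrays of different lines were hybridised separately, each line is 1 replicate, and there is no test. In these bulk RNAs, fewer cells that express a gene and less RNA per cell cannot be told apart. A probe was counted where the line means differed at least 2-fold and the arrays of the lines did not overlap.

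By this count CDA, RRM1 and SLC29A1, 3 of the 7 measured genes, were higher in DLD-1, where 8.01% of 18868 probes were, and 0 of 7 were higher in HT-29, where 5.16% were. SLC29A1 averaged 11.99 ± 0.051 in DLD-1 and 10.41 ± 0.20 in HT-29 (SD over 2 arrays), a 2.99-fold difference. The array values were 11.95 and 12.03 in DLD-1, against 10.27 and 10.55 in HT-29. The gap of 1.58 was many times the spread between arrays of a line and was alike in untreated cells (1.59) and treated cells (1.57). It was 0.76 with block medians of the signal set to 0, which ended the count.

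RRM1 averaged 12.35 ± 0.44 in DLD-1 and 10.39 ± 1.64 in HT-29, a 3.88-fold difference. Its array values were 12.04 and 12.65 in DLD-1, against 11.55 and 9.23 in HT-29, so the HT-29 arrays differed from each other by more than the lines did. The gap of 1.96 stayed at 1.73 with block medians set to 0 and was 0.80, under 2-fold, without HT-29 array 2.

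CDA averaged 12.24 ± 0.14 in DLD-1 and 10.91 ± 1.24 in HT-29, a 2.52-fold difference. Its array values were 12.34 and 12.14 in DLD-1, against 11.78 and 10.03 in HT-29. The gap of 1.33 was 0.46 without HT-29 array 2 and 0.52 with block medians set to 0, and neither passed 2-fold. Over all probes, signals of the 2 HT-29 arrays had r = 0.40, against 0.67 for the 2 DLD-1 arrays. Between the lines r was 0.64 for arrays 1 and 0.55 for arrays 2. The 2 HT-29 arrays were thus less alike than arrays of different lines, which limits every line difference given here. Block position accounted for 23.2% of the variance of the line difference. The part of the weaker HT-29 agreement in the CDA and RRM1 values was not tested.

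**Figure D2:**
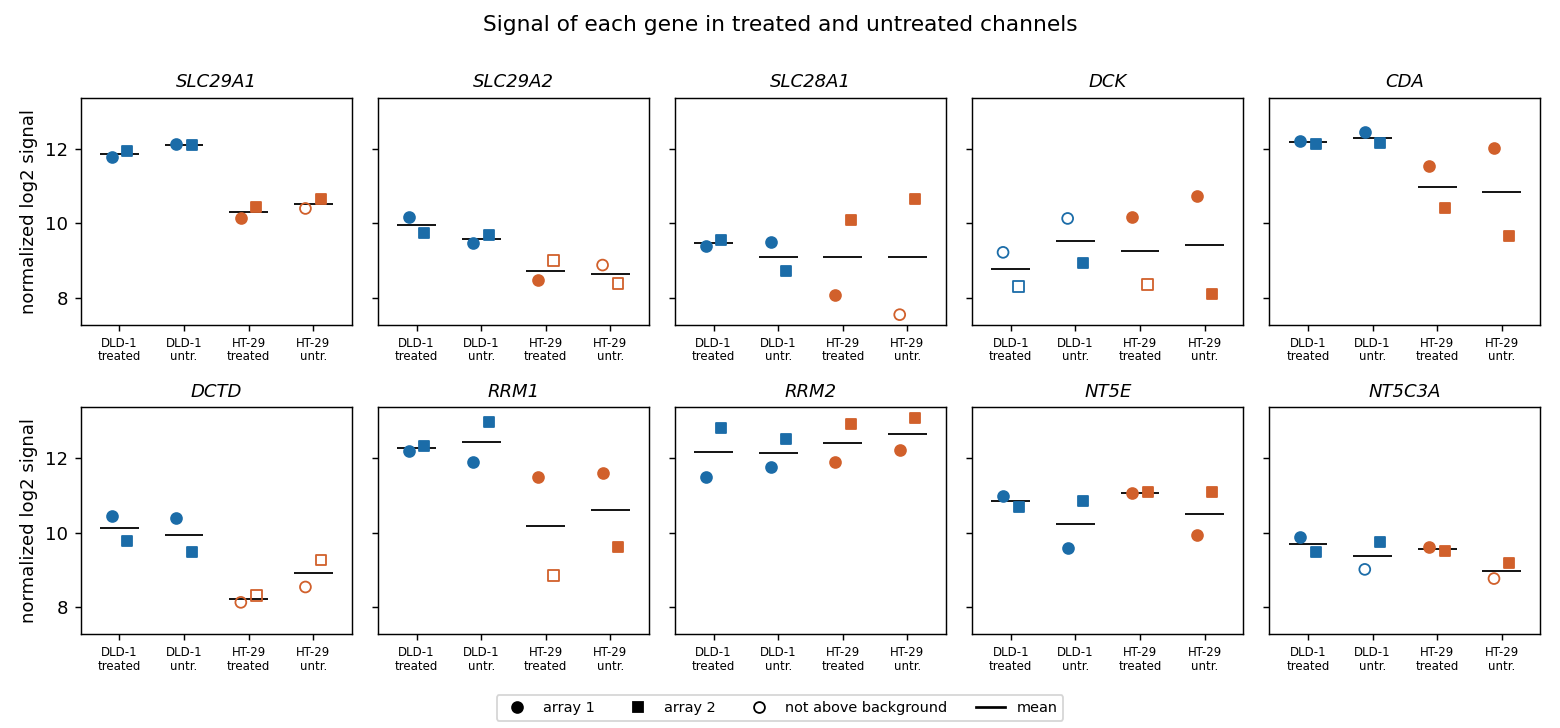
Normalized log2 signal (vertical axis, shared) of the 10 genes in treated and untreated channels of DLD-1 (blue) and HT-29 (orange), with circles for array 1, squares for array 2, open symbols for signal not above background and a bar for the mean of 2 arrays. SLC29A1 lies between 11.78 and 12.13 in DLD-1 and between 10.15 and 10.66 in HT-29, and DCTD is above background in DLD-1 and in no HT-29 channel.

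DCTD and SLC29A2 did not enter that count because they were at background in HT-29. DCTD was above background in 4 of 4 DLD-1 channels and in 0 of 4 HT-29 channels. Its array values were 10.42 and 9.64 in DLD-1, against 8.33 and 8.79 in HT-29, and they did not overlap. A dim HT-29 signal was taken as the higher of its own value and the lowest signal called above background on that array. In treated cells the own value was the higher on both arrays, so the treated fold is a measured fold against signal at background. In untreated cells it was the higher on 1 array. DCTD was 3.74-fold higher in treated DLD-1 than in treated HT-29 cells. With the raised HT-29 value it was 1.75-fold higher in untreated DLD-1 than in untreated HT-29 cells. In the labels' order these folds were 2.42 in treated and 2.70 in untreated cells, so which of them is larger rests on how the channels are read. The lowest signal holds for an array and not for each probe, so none of these folds is a strict lower bound.

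SLC29A2 was above background in 4 of 4 DLD-1 channels and 1 of 4 HT-29 channels. Its array values were 9.81 and 9.72 in DLD-1, against 8.68 and 8.69 in HT-29, a measured gap of 1.08, which was 1.00 with block medians set to 0 and 0.94, under 2-fold, in untreated cells alone. With HT-29 at background in 3 of 4 channels no fold is given. The remaining genes had smaller gaps. RRM2 was −0.39, NT5E −0.26 and DCK −0.19 (DLD-1 minus HT-29, log2 signal), NT5C3A was 0.27 and SLC28A1 0.20. For SLC28A1, DCK, RRM2 and NT5E the 2 HT-29 arrays lay on either side of the DLD-1 mean. Without HT-29 array 1 or 2 the SLC28A1 gap was −1.08 or 1.47, and the RRM2 gap was 0.25 with block medians set to 0.

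**Figure D3:**
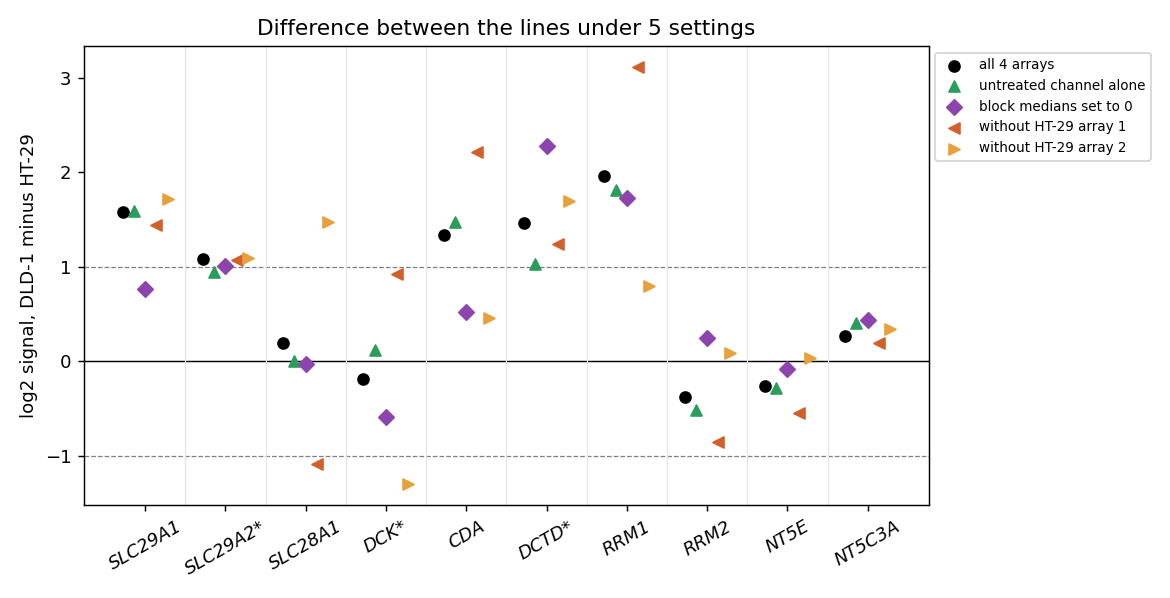
Difference in log2 signal, DLD-1 minus HT-29 (vertical axis), for the 10 genes (horizontal axis; an asterisk marks genes without signal above background on every array) over all 4 arrays, in the untreated channel alone, with block medians set to 0 and without either HT-29 array; dashed lines mark 2-fold. CDA, RRM1 and SLC29A1 each drop below 2-fold under at least 1 setting; the points of DCTD and SLC29A2 are measured against HT-29 signal that is mostly or wholly at background.

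DNA methyltransferases, which the drug traps, methylate the cytosines of CpG pairs, and the CpG content of the promoters is shown for the genes whose signal differed between the lines. RefSeq windows of 300 bases on GRCh38.p14, from 250 bases before to 50 after a transcript start, were used for 9 of the 10 genes (13 windows); none for SLC29A2 was used here. Each window below is that of the outermost start of its gene, on the strand named, with every CpG pair in capitals. The motif CG reads the same on both strands.
SLC29A1, chr6:44219365-44219664, plus strand: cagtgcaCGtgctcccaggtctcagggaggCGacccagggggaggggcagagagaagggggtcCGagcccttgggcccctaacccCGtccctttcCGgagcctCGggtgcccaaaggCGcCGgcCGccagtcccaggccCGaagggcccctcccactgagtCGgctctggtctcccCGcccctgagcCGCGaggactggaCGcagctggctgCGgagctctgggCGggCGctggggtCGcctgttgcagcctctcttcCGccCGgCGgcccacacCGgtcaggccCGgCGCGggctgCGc
CDA, chr1:20588847-20589146, plus strand: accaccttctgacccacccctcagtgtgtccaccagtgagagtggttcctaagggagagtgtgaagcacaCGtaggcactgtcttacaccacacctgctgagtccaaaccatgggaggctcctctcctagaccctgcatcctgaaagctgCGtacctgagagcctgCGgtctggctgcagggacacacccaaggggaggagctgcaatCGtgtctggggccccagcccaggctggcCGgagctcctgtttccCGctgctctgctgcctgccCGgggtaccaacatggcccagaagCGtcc
DCTD, chr4:182917562-182917861, minus strand: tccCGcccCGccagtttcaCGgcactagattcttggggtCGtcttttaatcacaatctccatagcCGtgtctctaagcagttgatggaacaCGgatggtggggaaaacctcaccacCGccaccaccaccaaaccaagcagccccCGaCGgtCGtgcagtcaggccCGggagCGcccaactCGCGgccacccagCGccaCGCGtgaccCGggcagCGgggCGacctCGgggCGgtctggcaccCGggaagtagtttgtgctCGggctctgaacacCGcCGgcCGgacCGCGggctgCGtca
RRM1, chr11:4094435-4094734, plus strand: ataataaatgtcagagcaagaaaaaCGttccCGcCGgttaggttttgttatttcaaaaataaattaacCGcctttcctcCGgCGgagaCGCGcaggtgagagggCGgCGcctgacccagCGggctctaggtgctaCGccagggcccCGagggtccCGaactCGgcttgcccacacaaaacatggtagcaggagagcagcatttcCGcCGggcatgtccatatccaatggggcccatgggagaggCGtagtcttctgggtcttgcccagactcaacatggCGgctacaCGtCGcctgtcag

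The CDA window held 8 CpG pairs, as many or more than which 60.7% of 35116 promoter windows held. SLC29A1 held 27 (28.2% of windows held at least that many), DCTD 30 (22.4%) and RRM1 21 (39.5%). A further window of SLC29A1 held 34 (15.6%) and one of DCTD 47 (2.41%). The median window had 14. Of the other genes, SLC28A1 had 4 (75.5%), DCK and NT5E 37 each (11.3%) and the windows of RRM2 41 and 31. NT5C3A had a window with 7 and one with 30. Of the 13 windows 10 were at or above the median, and the 3 below it belonged to CDA, SLC28A1 and NT5C3A. No gene of the set was called after the drug, so the counts could not be set against a response to it. CpG counts describe the letters of these windows; methylation was not measured in the files used here.

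**Figure D4:**
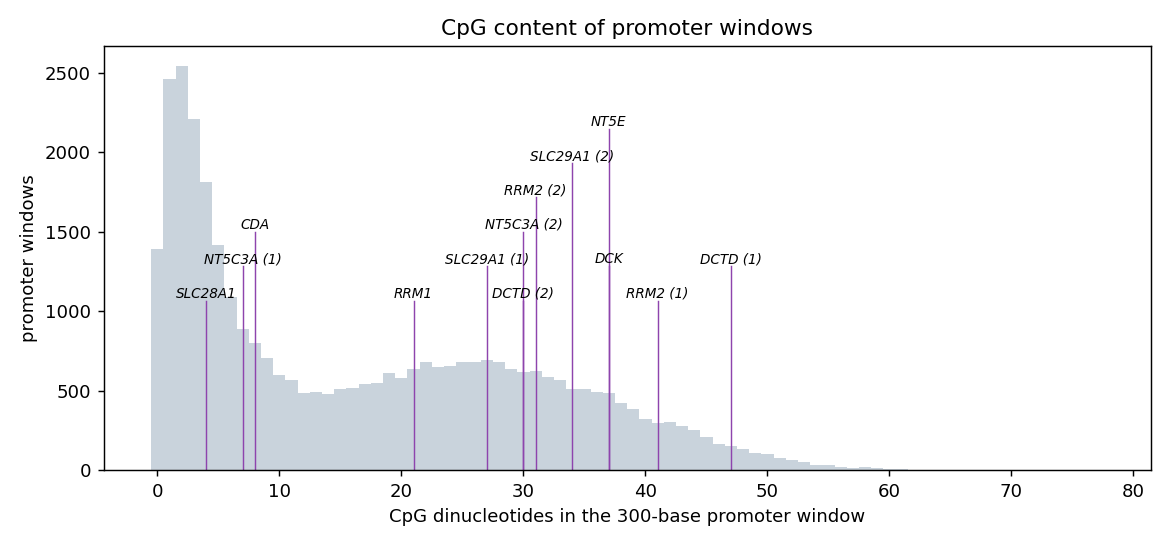
Number of promoter windows (vertical axis) by the count of CpG pairs in their 300 bases (horizontal axis), with the 13 windows of 9 genes marked; numbers in brackets count windows of 1 gene by position. Windows of SLC28A1, CDA and NT5C3A (4 to 8 pairs) lie below the median of 14, and the other 10 hold 21 to 47.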

How the data were processed

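RNA of treated and untreated DLD-1 and HT-29 cells was hybridised to 4 two-colour arrays of 30336 spots; per the labels, amino allyl aRNA was coupled to Cy3 or Cy5. The deposited scanner files hold, for each spot, the intensity, local background, background SD and background-subtracted intensity per channel (linear scale), with a log2 ratio that the authors shifted to a median of 0 on each array. The authors' series table repeats these log2 ratios with the sign turned. The scanner and its software are not named in the labels or headers.

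Values were recomputed in R 4.3.3 with limma 3.58.1: normexp background correction with an offset of 50, then 1 loess curve per array with control and bad spots given no weight. The 49 probes marked bad on some array were left out. The 2 arrays of a line were averaged, and the resulting 2 means were set against 0 with limma (lmFit, eBayes; two-sided), adjusting p by Benjamini-Hochberg over 18868 probes. limma took 1 shared variance for all probes. Signals per channel were scaled between arrays by quantiles of the array mean (Aquantile). No filter, a filter on both channels, block centring, other background correction and normalization, the deposited ratios, the labels' channel order and leaving out arrays were tried. The limma test of the 2 line means was tried on simulated log2 ratios. Background correction, normalization and the comparison of lines were not simulated.

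Probes were named from the platform table, where 14200 had 1 symbol, 447 several and 14993 none, and 1392 of those with none from the files' descriptions. All 10 genes are described. Of the wider pathway list, genes past the limma threshold or 2-fold on both arrays of a line were to be named, otherwise the 3 highest and 3 lowest. The genes and lists were chosen with earlier results of these data known.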

Additional observations from a re-analysis of the deposited data

Results flagged for a closer look

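With channel 2 read as treated, DCTD had ratios of opposite sign in the 2 lines. The log2 values were 0.076 and 0.30 on the DLD-1 arrays and −0.41 and −0.95 on the HT-29 arrays. The DLD-1 mean exceeded the HT-29 mean by 0.87, and this difference was not tested. In the labels' order the array 2 ratios take the other sign. Each line then held both signs and the DLD-1 mean was below the HT-29 mean, so the flagged difference rests on how the channels are read. DCTD was above background in no HT-29 channel, so its HT-29 ratios show no direction, and its mean over both lines was −0.25, or 0.080 in the labels' order.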

How the results depend on the processing

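The count of called genes of the set was also 0 in the labels' order, with other background correction and normalization, with the 4 arrays as replicates, without a filter (all 10 tested), and with both channels above background or the deposited ratios, where 3 of the 7 were tested. It ran from 0 to 2 with 1 array left out; the 2 were NT5E and NT5C3A without DLD-1 array 2. Over all probes, limma called 33 in the main analysis, 135 in the labels' order, 4 with block medians set to 0, 3 with the authors' subtracted intensities, 56 without a filter, 81 with the 4 arrays as replicates and the line as a random block, and 1 to 874 with 1 array left out. Probes at least 2-fold changed in DLD-1 numbered 26, against 81 in the labels' order, 77 with the authors' subtracted intensities, 71 without a filter, 9 with both channels above background, and 26 to 1628 with 1 array left out. In HT-29 they numbered 29, against 70, 95, 56 and 17 in the same settings, 16 with block medians set to 0, and 29 to 1367 with 1 array left out. Probes that differed between lines numbered 2484, against 4843 without a filter and 4118 to 7746 with 1 array left out. Of 103 values of the gene means under alternatives, 13 had the other sign. In the labels' order these were CDA (−0.37), DCTD (0.080), RRM1 (0.39) and SLC29A2 (−0.092). CDA was −0.013 with median centring and −0.0082 in the deposited ratios, and RRM2 was 0.036 with block medians set to 0. With 1 array left out CDA ran from −0.30 to 0.32, RRM2 from −0.26 to 0.027, SLC28A1 from −0.097 to 0.45 and SLC29A2 from −0.014 to 0.49. A filter on fewer or more channels changes which probes are tested; other causes were not tested. Block centring of the line difference was chosen after seeing the data. Treated and untreated RNA share each array, so every ratio is a within-array pair, and the test of ratios against 0 used that pairing. Arrays could not be paired across lines, because the labels give no number for it. Signal at background limits DCK, DCTD and SLC29A2.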

Other observations

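Among 41 tested probes of the wider pathway list, 3 differed 2-fold or more towards DLD-1 and 3 towards HT-29 without overlap between the arrays, where 8.01% and 5.16% of all probes were; they are named here after their values were seen. NT5C1A, a cytosolic 5'-nucleotidase, was 2.92-fold higher in DLD-1, UMPS, the last enzyme of de novo UMP synthesis, 2.77-fold and ADK, adenosine kinase, 2.02-fold. With block medians set to 0 their log2 differences were 0.995, 2.00 and 0.46, so those of NT5C1A and ADK were under 2-fold. UMPS was above background in 2 of 4 HT-29 channels, so its fold is set partly against signal at background. DNMT3A, a de novo DNA methyltransferase that decitabine traps, was 4.42-fold lower in DLD-1, DNMT1, the maintenance methyltransferase, 2.21-fold lower and ABCG2 2.12-fold lower. Their log2 differences with block medians set to 0 were −1.76, −0.65 and −0.56. DNMT1 was −0.52 without HT-29 array 2, ABCG2 −0.73 and ADK 0.69 without HT-29 array 1, all under 2-fold, and DNMT3A was −2.02 and −2.27 without HT-29 array 2 or 1. DNMT3A had array values of 10.24 and 9.08 in DLD-1, against 11.68 and 11.93 in HT-29.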
